A study of Mus musculus with 4 samples.

Results

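The genes described here are the type 2 cytokines Il4, Il5 and Il13, the alarmin Il33, its receptor Il1rl1 (ST2), the receptor chain Il4ra shared by the responses to IL-4 and IL-13, and the chemokine Ccl1. They are 7 of the 31053 mouse features measured, picked by symbol, and each symbol matched 1 feature. The choice was made with the levels of these genes by cell type and host genotype already known, so those levels are given as a description without a test. The human counterparts in the same combined reference held 0 UMIs (unique molecular identifiers, a count of captured transcripts) over their 7 features.

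Single-cell RNA was collected from 4 mammary tumours, 2 grown in wild type (WT) FVB/NJ hosts and 2 in Il1a-/- FVB/NJ hosts, all hosts being 6 to 8 weeks old. In each host, 2000000 cells of the HER2+ mouse mammary tumour line H605 were placed in the mammary pad and the tumour was taken at day 14. The deletion is carried by the host and not by the transplanted cells, and all transplanted cells come from 1 line. The labels give 2 pairs of tumours collected on separate days, and each tumour is 1 sample. Tumours were digested and enriched for live cells, with no sort for a cell type. The labels name no cell type or promoter to which the deletion is limited, and do not say whether the host animals were littermates.

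Type 2 cytokines are made mainly by T helper 2 cells, group 2 innate lymphoid cells, mast cells, basophils and some regulatory T cells. IL-33 is released from stromal and barrier cells when they are damaged, binds ST2 together with the accessory chain Il1rap, and signals through Myd88 to NF-κB in cells that carry ST2. IL-4 and IL-13 act through receptors that contain Il4ra and activate Stat6, IL-5 supports eosinophils through Il5ra and Csf2rb, and Ccl1 attracts cells that carry Ccr8. Il4, Il13 and Il5 lie side by side in the mouse genome and are opened together in T helper 2 cells, where Gata3 is the leading transcription factor.

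In GENCODE vM21 coordinates for mm10, Il4 (ENSMUSG00000000869) runs from 53602982 to 53618669 on the minus strand of chromosome 11. Il13 (ENSMUSG00000020383) runs from 53631324 to 53634702 on the minus strand, 12.7 kb from Il4. Il5 (ENSMUSG00000036117) runs from 53720794 to 53725106 on the plus strand, 102 kb from Il4, with Rad50 between Il13 and Il5. The 3 cytokine genes together span 122 kb. Kif3a, a motor protein gene, ends 1.01 kb from Il4. Ccl1 (ENSMUSG00000020702) lies on the same chromosome but 28558 kb away. Its GENCODE gene runs from 82176657 to 82305690 on the minus strand, and RefSeq's start lies 125878 bases inside it. Il1rl1 (ENSMUSG00000026069) runs from 40429570 to 40465415 on the plus strand of chromosome 1, Il33 (ENSMUSG00000024810) from 29925114 to 29960718 on the plus strand of chromosome 19, and Il4ra (ENSMUSG00000030748) from 125552120 to 125579474 on the plus strand of chromosome 7.

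The promoters of the 3 linked cytokine genes, of Ccl1 and of Il1rl1 are shown because the cells that carry their transcripts overlapped. Each sequence is RefSeq's for GRCm38.p6, covers 250 bases before the start site and 50 after it, and is written 5′ to 3′ along the gene's strand. Capitals mark GATAA or its reverse complement TTATC, the core letters read by GATA factors. Of the start sites RefSeq gives for Il4 and Il1rl1, the one closest to the GENCODE gene start was taken. The intervals are chr11:53618616-53618915 for Il4, chr11:53634653-53634952 for Il13, chr11:53720544-53720843 for Il5, chr11:82179763-82180062 for Ccl1 and chr1:40429320-40429619 for Il1rl1.
Il4: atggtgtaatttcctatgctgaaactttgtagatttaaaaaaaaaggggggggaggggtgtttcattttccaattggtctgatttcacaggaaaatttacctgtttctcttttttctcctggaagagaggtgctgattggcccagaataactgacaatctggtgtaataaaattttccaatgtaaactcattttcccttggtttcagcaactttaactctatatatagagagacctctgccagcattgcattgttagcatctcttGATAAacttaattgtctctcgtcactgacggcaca
Il13: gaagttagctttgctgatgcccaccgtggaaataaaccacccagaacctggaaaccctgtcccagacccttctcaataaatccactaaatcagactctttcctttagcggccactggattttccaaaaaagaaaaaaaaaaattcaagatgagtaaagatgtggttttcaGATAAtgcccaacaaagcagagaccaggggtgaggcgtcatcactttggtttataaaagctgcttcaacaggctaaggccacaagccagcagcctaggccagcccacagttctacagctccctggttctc
Il5: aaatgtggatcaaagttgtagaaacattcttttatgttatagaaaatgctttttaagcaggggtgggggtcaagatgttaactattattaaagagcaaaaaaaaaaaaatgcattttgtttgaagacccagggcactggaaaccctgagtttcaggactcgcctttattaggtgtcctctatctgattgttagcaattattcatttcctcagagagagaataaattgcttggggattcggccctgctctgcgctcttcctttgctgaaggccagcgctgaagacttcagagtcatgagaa
Ccl1: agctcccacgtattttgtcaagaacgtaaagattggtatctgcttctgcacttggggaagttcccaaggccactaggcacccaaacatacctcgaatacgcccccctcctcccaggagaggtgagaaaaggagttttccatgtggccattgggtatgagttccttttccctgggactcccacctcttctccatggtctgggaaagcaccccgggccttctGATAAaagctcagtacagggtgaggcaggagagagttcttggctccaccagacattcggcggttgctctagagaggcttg
Il1rl1: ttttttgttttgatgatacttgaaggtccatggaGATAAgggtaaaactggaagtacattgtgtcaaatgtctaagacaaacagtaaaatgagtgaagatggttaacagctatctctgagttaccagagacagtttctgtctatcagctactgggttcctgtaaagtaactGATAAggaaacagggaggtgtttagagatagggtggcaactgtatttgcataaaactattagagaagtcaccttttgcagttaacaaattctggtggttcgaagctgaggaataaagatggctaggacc
The GATAA letters stood once in the windows of Il4, Il13 and Ccl1, in 2 places in that of Il1rl1 and in 0 places in that of Il5. Of all 32851 promoter windows of the same length, 25.4% held at least 1 match, so a match is common. GGAAA or TTTCC, the core of sites read by NFAT and NF-κB factors, was found 5 times for Il4, 4 times for Il13, 2 times for Il5, 3 times for Ccl1 and 1 time for Il1rl1, against 61.3% of windows with at least 1. The Stat6 site with TTC and GAA 4 bases apart was found 1 time for Il4 and 0 times in the other 4 windows (6.95% of windows). TGANTCA, an AP-1 site, was found in none of the 5 windows (7.81% of windows). Overlapping matches were counted, and both strands were searched.

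The files hold raw counts, and cells were sorted into types by marker genes without use of the 7 genes. A barcode passed with at least 500 UMIs, 250 genes and at most 20% mitochondrial UMIs, and a cell was gated to the class with at least 3 distinct markers detected and at least 2 times as many as the next class. Of 14127 called cells, 12995 were gated. The gates are called by their markers: T/NK for T and natural killer cells together, phagocyte for monocytes and macrophages, plasmacytoid dendritic, and fibroblast. The T/NK gate held 2226, 2324, 2258 and 2298 cells in WT replicate 1, WT replicate 2, Il1a-/- replicate 1 and Il1a-/- replicate 2, the order used for all lists of 4 values. Total UMIs were 23464120, 29001333, 6705368 and 15298532, so both Il1a-/- libraries were shallower than both WT libraries, and T/NK cells held a median of 2834.5, 4112, 1298 and 2740.5 UMIs. Between 0 and 6 barcodes were shared by any pair of libraries, where chance gives 1.58 to 2.36. The targeted gene Il1a was counted 65 and 107 times in called WT cells and 1 and 0 times in called Il1a-/- cells.

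Il13, the effector cytokine that drives mucus and tissue remodelling, was measured at 95.5 and 141 CPM (the gene's UMIs scaled to the total UMIs of the gate in that sample) in the T/NK cells of WT tumours. In those of Il1a-/- tumours it stood at 40.7 and 42.1 CPM. The Il1a-/- samples were both lower than both WT samples, at 41.4 ± 0.981 against 118 ± 31.9 CPM (SD, n = 2 each), a log2 ratio of -1.51. In each library counting error was smaller than that gap: the exact Poisson 95% intervals reached from 88.8 to 103 CPM in WT replicate 1 and from 37.8 to 46.7 in Il1a-/- replicate 2. Intervals of this kind cover counting error only. They leave out the error from which cells were captured, and many of these UMIs lay in few cells.

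Il4, the cytokine that directs T helper 2 differentiation and IgE switching, was at 23.1 and 38.5 CPM in WT T/NK cells and at 9.17 and 18.0 CPM in Il1a-/- T/NK cells. Here too the Il1a-/- values lay below the WT values, with a log2 ratio of -1.18. Il5, the eosinophil growth factor, did not share that order. Its levels were 9.52 and 17.3 CPM in the WT samples and 16.9 and 7.78 CPM in the Il1a-/- samples, so the groups overlapped and the log2 ratio was -0.12. Summed over Il4, Il5 and Il13, the level was 128 and 197 CPM against 66.8 and 67.9 CPM, a log2 ratio of -1.27.

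Ccl1, the ligand of Ccr8, had the widest gap of the 6 genes with at least 20 UMIs in the T/NK gate. It was at 129 and 255 CPM in WT samples and at 52.4 and 23.5 CPM in Il1a-/- samples, a log2 ratio of -2.34. With 1 tumour left out the ratio ran from -1.77, without WT replicate 2, to -3.03, without Il1a-/- replicate 1. The IL-33 receptor Il1rl1 was at 156 and 114 CPM in WT samples and at 75.4 and 127 CPM in Il1a-/- samples. These groups overlapped, and the log2 ratio was -0.42. Il4ra was at 49.1 and 54.8 CPM in WT samples and at 83.7 and 90.5 CPM in Il1a-/- samples, higher in both Il1a-/- samples with a log2 ratio of 0.75.

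Thus 3 members (Il4, Il13 and Ccl1) were lower in both Il1a-/- samples, 1 (Il4ra) was higher in both, and 2 (Il5 and Il1rl1) overlapped in the T/NK gate. Of the 11868 genes with at least 20 UMIs in the same cells, 55.9% did not overlap between the groups: 32.2% were lower in both Il1a-/- samples and 23.7% higher in both. Nothing is read from the members' count against those shares, since the members were chosen on this contrast. Per gated cell, and not per UMI, the Il4ra log2 ratio was 0.05 and the groups overlapped, from 382, 642, 292 and 768 UMIs. Median UMIs per T/NK cell were 2834.5, 4112, 1298 and 2740.5.

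**Figure D1:**
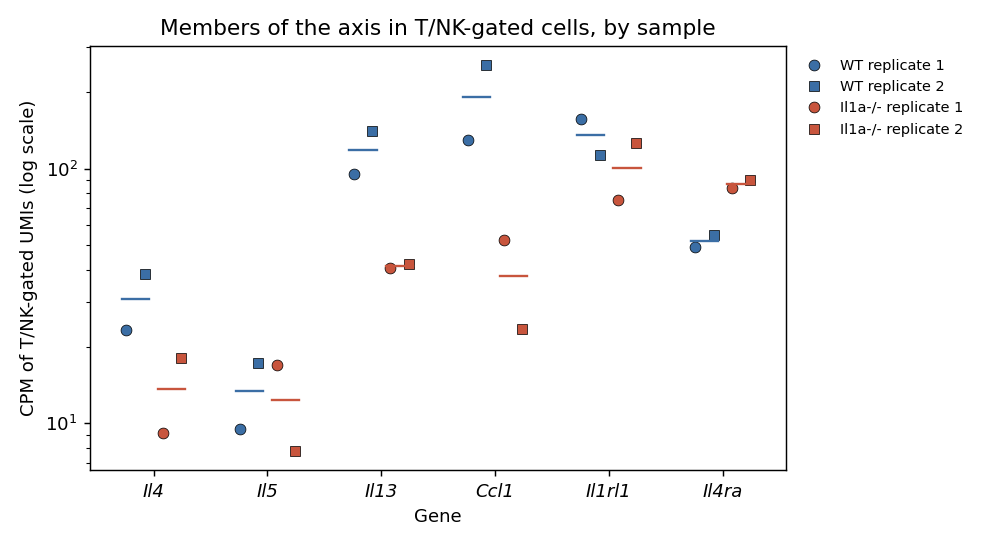
Levels of 6 of the genes in T/NK-gated cells, in CPM on a log scale, with 1 point per sample and a line at each group's mean (n = 2). Il4, Il13 and Ccl1 are lower in both Il1a-/- samples, Il4ra is higher in both, and Il5 and Il1rl1 overlap.

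The cytokines were confined almost wholly to T/NK cells in these samples. Of each sample's UMIs in called cells, the T/NK gate held 91.4% to 98.7% of those of Il4, 91.7% to 100% of Il5, 95.3% to 99.2% of Il13, 90.9% to 98.5% of Ccl1 and 90.1% to 95.8% of Il1rl1. Fibroblast-gated cells, which should not make these cytokines, had a UMI of Il4, Il5 or Il13 in 0.575%, 0.962%, 0 and 0.395% of cells, against 6.83%, 6.28%, 1.82% and 4.05% of T/NK cells. Fibroblasts were the deeper cells, with medians of 6180.5, 10660.5, 3141 and 7427 UMIs. The 0 of 285 cells allows a share of up to 1.29% (exact Clopper-Pearson). RNA outside cells, in barcodes of at most 100 UMIs, held Il13 at 13.5, 31.5, 18.8 and 20.4 CPM and Il4 at 17.6, 15.3, 10.8 and 26.1 CPM. Mast/basophil-gated cells, another known source of Il4, numbered 5, 10, 2 and 7 and held 4 Il4 UMIs in all beside 28 Il1rl1 UMIs. Per UMI, their WT means were 121 CPM for Il4 and 865 CPM for Il1rl1, against 30.8 and 135 CPM in T/NK cells. In Il1a-/- samples they were 0 and 362 CPM, the latter from 3 UMIs, against 13.6 and 101 CPM. Eosinophil-gated cells numbered 0.

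Few cells carried most of the transcripts. Of the Il13 UMIs, 50% lay in 13, 11, 6 and 9 cells, and the highest single cell held 73, 125, 17 and 30. For Il4 the same share lay in 4, 3, 2 and 3 cells, and 1 cell of WT replicate 2 held 123 of that sample's 452 UMIs. For Ccl1 it lay in 7, 9, 2 and 4 cells, and 1 cell of Il1a-/- replicate 1 held 72 of 183. Il1rl1 was spread more widely, over 58, 57, 15 and 40 cells, and Il4ra over 130, 160, 105 and 181.

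T/NK cells with at least 1 UMI of Il4, Il5 or Il13, called type 2 cytokine cells here, numbered 152, 146, 41 and 93. Their share was lower in both Il1a-/- samples, at 1.82% (95% interval 1.31% to 2.46%) and 4.05% (3.28% to 4.94%) against 6.83% (5.82% to 7.96%) and 6.28% (5.33% to 7.35%). These exact binomial intervals cover the sampling of cells within a tumour only. They leave out the spread between tumours and are no test of genotype. With each cell thinned to 1000 UMIs, the shares were 4.34%, 4.23%, 1.83% and 2.54%, in the same order by genotype. Thinning left out 835 of 9106 cells as too shallow and kept 2167, 2268, 1635 and 2201. Il1a-/- replicate 1 lost the most cells. Within the cytokine cells the summed level was 1442, 2273, 2930 and 1750 CPM. Their median depth was 3746.5, 5647, 1478 and 2953 UMIs. A cell is chosen by at least 1 UMI, which is a larger share of a shallower cell's total. The level within these cells therefore depends on depth and is not compared between the genotypes.

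**Figure D2:**
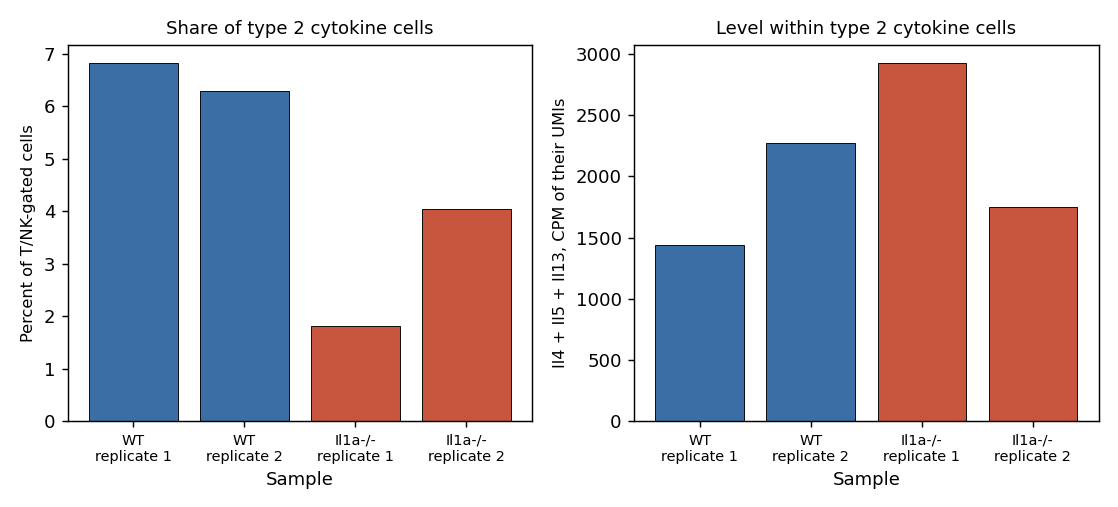
Left, the percent of T/NK-gated cells with a UMI of Il4, Il5 or Il13, and right, the summed level of those genes within these cells in CPM, with 1 bar per sample. The share is between 6.28% and 6.83% in WT samples and 1.82% and 4.05% in Il1a-/- samples. The level within the cells depends on depth and is not compared between genotypes.

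Many cytokine cells carried more than 1 of the linked genes. In the 4 samples 9, 21, 5 and 3 cells held all 3 of them, and 54, 47, 13 and 28 held 2. Of cells with Il5, 77.8%, 86.0%, 82.4% and 57.1% also had Il13, against 4.11%, 3.43%, 0.848% and 2.11% of T/NK cells without Il5. Cells with Il13 were deeper than those without it, with medians of 4028.5, 6016, 1494 and 3088.5 UMIs, which raises any second gene's share.

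A CD3 or T cell receptor gene was detected in 151, 142, 41 and 92 of the cytokine cells. All genes of this set (Cd3d, Cd3e, Cd3g, Trac and Trdc) are also markers of the T/NK gate, so the gate itself favours their detection. Cells with Cd4 and no Cd8 transcript made up 62.5%, 75.3%, 29.3% and 51.6% of the cytokine cells but 15.9%, 17.6%, 5.40% and 13.3% of all T/NK cells. Cells with Cd8 and no Cd4 numbered 2, 0, 5 and 5 among them, while their share of all T/NK cells was 6.47%, 11.6%, 38.4% and 35.9%. Within the Cd4 cells, the summed cytokine level was 498, 952, 507 and 502 CPM, which overlapped between the genotypes. Shares of Cd4, Cd8 and natural killer cells in the gate moved with the host genotype beside the cytokine levels, and their part in those levels was not tested.

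The list of mast cell and basophil markers was higher in the cytokine cells than in other T/NK cells in 4 of 4 samples. Its defining genes were mostly at or near 0: over the 432 cytokine cells 6 of the 12 markers had 0 UMIs, among them Tpsb2, Tpsab1, Ms4a2 and Fcer1a. Cpa3, a mast cell protease, had 2 UMIs. The list's summed level of 98.3, 165, 176 and 152 CPM came mainly from Cyp11a1, the enzyme that starts steroid synthesis, with 259 UMIs in 88 cells, and from Cd200r3 with 27. Cells with any marker of the list made up 26, 52, 4 and 18 of the cytokine cells. The other T/NK cells held the list at 8.19, 14.7, 18.2 and 15.6 CPM. The 6 eosinophil markers summed to 26.0, 10.8, 101 and 39.5 CPM against 9.32, 5.60, 6.16 and 3.92 CPM. The part of these transcripts in the comparison below was not tested. Phagocyte markers were lower in the cytokine cells than in other T/NK cells, with summed levels of 73.8 to 126 against 143 to 196 CPM.

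The cytokine cells were then compared with the other T/NK cells of the same tumours, with the sample as a block, by edgeR (quasi-likelihood fit, Benjamini-Hochberg adjusted p over 9732 genes). Of these, 1779 passed an adjusted p of 0.05, which is 18.3% (9.39% higher and 8.89% lower). Il4, Il5 and Il13 define the cells and have no test. Fitted log2 fold changes here use library sizes scaled by edgeR's TMM method, and the cytokine cells were deeper, with medians of 3746.5, 5647, 1478 and 2953 UMIs against 2780.5, 4017.5, 1297 and 2730.

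Il1rl1 was far higher in the cytokine cells. Its scaled level was 1034, 733, 1749 and 1563 CPM in them and 71.1, 58.0, 32.3 and 74.2 CPM in the other T/NK cells. The log2 fold change was 4.33 ± 0.20 (SE), higher in 4 of 4 samples, with an edgeR adjusted p of 1.85e-16. Of cells with Il13, 77.1%, 76.9%, 81.8% and 75.0% had an Il1rl1 UMI, against 11.3%, 10.6%, 2.43% and 8.06% of the T/NK cells without Il13.

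Ccl1 was higher in the cytokine cells as well. Its level was 945, 1070, 1255 and 349 CPM in them and 50.02, 183, 21.5 and 11.5 CPM in the others. The log2 fold change was 4.23 ± 0.28 (SE), higher in 4 of 4 samples, with an edgeR adjusted p of 7.79e-13. Il4ra did not pass and was higher in 1 of 4 samples: it was at 32.4, 34.0, 115 and 91.3 CPM against 49.6, 57.0, 82.0 and 92.3 CPM, with a log2 fold change of -0.35 ± 0.20 (SE) and an edgeR adjusted p of 0.269.

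The gene lists were chosen with earlier results of these data known, so their counts and medians are given as a description. Of the type 2 T cell programme, 22 of 25 genes tested were higher in the cytokine cells and 1 lower. The median log2 fold change was 2.46 against -0.07 over all genes tested. Gata3, the lineage's leading transcription factor, rose from a mean of 107 to 651 CPM (log2 fold change 2.61 ± 0.13). Pparg, a nuclear receptor needed by tissue type 2 cells, had a log2 fold change of 4.83, Calca, which encodes the neuropeptide CGRP, 4.38, and Cysltr1, a receptor for cysteinyl leukotrienes, 4.44. Tnfsf11 (RANKL), Epas1, Bhlhe40 and Junb were also higher, with log2 fold changes from 1.197 to 3.40, and all 8 named genes were called at an edgeR adjusted p of 1.81e-12 or lower.

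The type 1 programme was mostly lower, with 12 of 17 genes lower and 2 higher and a median of -1.54. Eomes, a transcription factor of natural killer and memory cells, had a log2 fold change of -4.95 and the kinase gene Txk -4.26. Ccl5, Gzmb, Ccl4, Il18r1 and Cxcr3 fell too, with log2 fold changes of -2.46, -2.54, -1.23, -1.87 and -2.04. Cxcr6, a chemokine receptor of tissue T cells, was higher, by a log2 fold change of 1.75. Of the subset markers 8 of 11 were lower, among them Ncr1 (-4.84), Klrb1c (-3.91), Trdc (-3.53) and Cd8a (-3.52), and 3 were higher: Cd40lg (3.32), Cd4 (2.58) and Il7r (1.37).

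Regulatory T cell genes divided. Of 11 tested, 5 were higher and 5 lower, with a median of 0.55. Foxp3 itself fell by 3.22 and Ikzf2 by 3.05 on the log2 scale, and Tnfrsf9 had a log2 fold change of -0.68, a call that was lost in 6 of 11 alternatives (edgeR or DESeq2 adjusted p up to 0.529). The call of Ikzf4 was lost in 4 of 11. The IL-2 receptor chain Il2ra (2.20), Capg (1.17), Tnfrsf4 (1.14), Ikzf4 (0.87) and the inhibitory receptor Ctla4 (0.69) rose. When the same comparison was made among Cd4 cells only, Ctla4, Ikzf4, Tnfrsf4 and Cd4 turned to log2 fold changes of -0.60, -0.62, -0.91 and -0.045. The Cd4 comparison had 718 calls. There Ccl4, Eomes, Klrb1c and Il7r lost their calls, with edgeR adjusted p of 0.802, 0.0556, 0.0601 and 0.922. Without the sample as a block, Ccl5, Gzmb and Cd8a lost theirs, with edgeR adjusted p of 0.331, 0.0827 and 0.0544. Of 81 called genes of the lists, of the largest changes and of the members, 54 kept their call in every alternative setting that tested them. Not every gene was tested in all 11 alternatives, and Adcy4 was tested in 6.

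**Figure D3:**
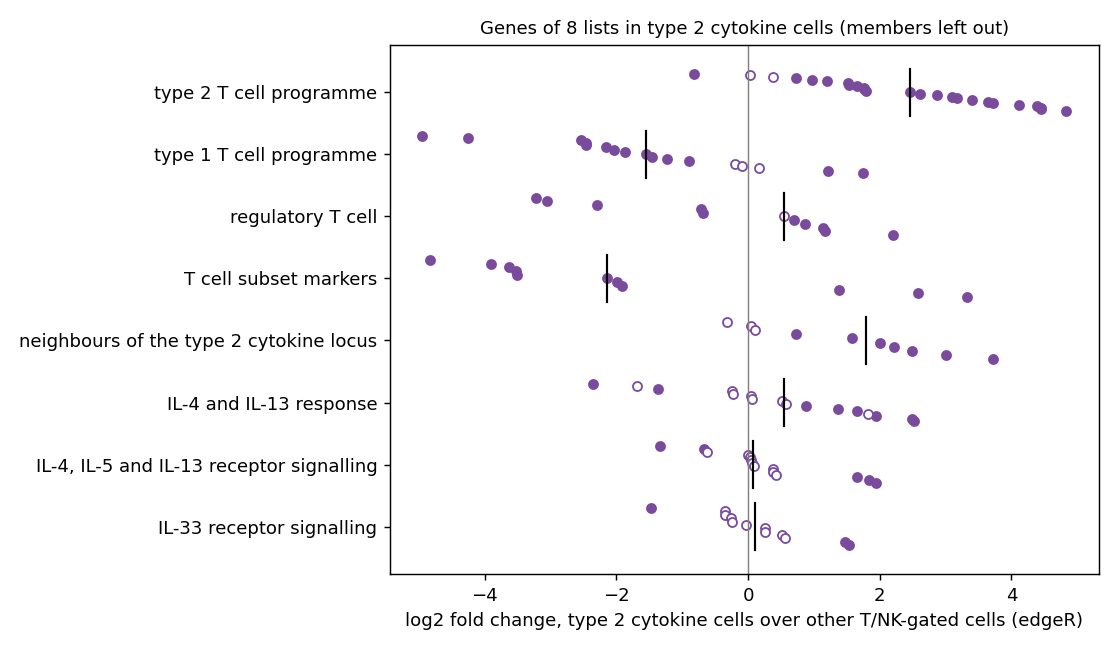
Log2 fold changes of listed genes in type 2 cytokine cells over other T/NK-gated cells (edgeR), with 1 point per gene, filled where the adjusted p is below 0.05, and a bar at each list's median. The type 2 programme sits to the right with a median of 2.46, and the type 1 programme to the left with a median of -1.54.

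Neighbours of the cytokine genes on chromosome 11 were higher too. Of 10 tested, 7 rose and 0 fell, with a median log2 fold change of 1.79. Kif3a, next to Il4, rose by 3.004 ± 0.41 (SE), from a mean of 3.51 to 24.9 CPM. Rad50, the DNA repair gene that contains the locus control region of the cytokine cluster, rose by 1.58 ± 0.17. Sept8 rose by 2.48, Aff4 by 2.01, Zcchc10 by 2.21 and Hspa4 by 0.72, and Csf2, which encodes GM-CSF and is also in the type 2 list, by 3.72. Whether the deposited counts could assign transcripts of 1 neighbour to another was not tested.

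Receptor and signalling genes moved less. Of 14 tested genes of IL-4, IL-5 and IL-13 receptor signalling, 3 were higher and 2 lower, with a median of 0.08: Cish (1.94), a feedback inhibitor of Stat5, Jak2 (1.65) and the insulin receptor substrate Irs2 (1.84) rose, and Ptpn6 and Jak1 fell by 1.35 and 0.67. Of 12 tested genes of IL-33 receptor signalling, Nfkbia (1.54) and Nfkb1 (1.47) rose and Irak2 fell by 1.47, with a median of 0.11. Among the other alarmin receptors, the IL-25 receptor chain Il17rb rose by 3.18 and the TSLP receptor Crlf2 by 0.73. Of the 16 tested genes of the IL-4 and IL-13 response list, 6 were higher and 2 lower, with a median of 0.54, and the higher ones included Irf4 (1.65), Arg1 (2.52), Egr2 (1.36), Ccl24 (2.50) and Pdcd1lg2 (0.88). Arg1 and Ccl24 are genes of alternatively activated macrophages and were low in these cells, at means of 12.8 and 20.9 CPM.

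By size of change, the 12 genes with the largest increase in the cytokine cells were 1700061F12Rik, Akr1c18, Bex1, Gm13522, Scn4b, Fez1, Caly, Crabp2, Cyp11a1, Calr3, Adcy4 and Il6. Akr1c18, which inactivates progesterone, had 317 UMIs in the cytokine cells and 14 in all other T/NK cells, and Cyp11a1, which makes the precursor of progesterone, had 259 and 72. Bex1 had 318 and 29, and Crabp2, a retinoic acid binding protein gene, 68 and 14. Il6 had 71 and 25. Scn4b and Fez1 were higher in 2 of 4 samples and Adcy4 in 3 of 4, and the other 9 in 4 of 4. All 12 genes with the largest fitted decrease had 0 UMIs in the cytokine cells. Against a floor of 3 UMIs over all cytokine cells, Nsg2 was at least 22.8-fold lower, Styk1 16.8-fold, the kinase gene Syk 15.3-fold and Tiam2 12.9-fold, and the other 8 were at least 6.43-fold to 11.04-fold lower.

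Outside the cytokine cells, Il1rl1 was also carried by regulatory T cells. In T/NK cells with a Foxp3 UMI and no cytokine UMI it was at 322, 200, 247 and 337 CPM, and in cells with neither at 46.1, 35.7, 27.3 and 58.2 CPM. In every sample the cytokine cells were highest, the Foxp3 cells next and the remaining cells lowest. Foxp3 cells made up 8.89%, 9.85%, 1.73% and 4.40% of the T/NK cells. Within the cytokine cells, Il1rl1 was at 1014, 701, 1911 and 1455 CPM unscaled, and 73.7%, 72.6%, 78.0% and 71.0% of them had an Il1rl1 UMI, shares that overlapped between the genotypes. A cell counts as a cytokine cell by detection, and depth differed between the genotypes, so levels within these cells are not compared. Within the Foxp3 cells the genotypes overlapped.

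Il1rap, the accessory chain that ST2 needs, was low in T/NK cells, at 12.6, 8.53, 16.0 and 10.6 CPM. The receptor of Ccl1, Ccr8, was rare: from 13, 14, 1 and 6 UMIs it was at 18.8, 13.8, 12.6 and 18.2 CPM in cytokine cells and at 2.81, 1.29, 1.502 and 1.68 CPM in T/NK cells with neither Foxp3 nor a cytokine. It was at 8.74, 6.24, 24.7 and 0 CPM in the Foxp3 cells.

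Ccl1 was not limited to the cytokine cells. These held 63.8%, 34.7%, 59.6% and 53.8% of its T/NK UMIs. In WT replicate 2, 615 Ccl1 UMIs lay in cells with Cd8 and no Cd4, a level of 404 CPM, against 126, 29.2 and 13.1 CPM in the same cells of WT replicate 1 and the Il1a-/- samples. Of cells with Ccl1, 17.4%, 43.8%, 42.1% and 44.8% also had Ifng, the type 1 cytokine, against 11.2%, 14.2%, 9.11% and 17.9% of T/NK cells without Ccl1. The Il1a-/- shares rest on 8 of 19 and 13 of 29 cells. Cells with Ccl1 were deeper, which raises any second gene's share. Their medians were 3616, 7223, 1860 and 4861 UMIs against 2825, 4012, 1297 and 2722. Foxp3 cells without a cytokine UMI held 62 and 209 Ccl1 UMIs in WT tumours but 0 and 0 in Il1a-/- tumours, where they numbered 39 and 100. The 62 UMIs lay in 7 of 197 such cells of WT replicate 1. In WT replicate 2, 15 of all 229 Foxp3 cells had Ccl1. With so few carrying cells, the 0 values are not read as a genotype difference.

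In all 3 T/NK subsets the Il4ra values of both Il1a-/- samples lay above those of both WT samples. Il1a-/- replicate 1 had 10 UMIs in the cytokine cells and 7 in the Foxp3 cells. These subsets were chosen by detected UMIs and depth differed between the genotypes, so no genotype difference is read from the values. Counted per gated cell, the groups overlapped for Il4ra in the whole T/NK gate. The share of all genes that separate the groups within a subset was not computed. Il4ra was at 31.8, 32.5, 126 and 85.1 CPM in cytokine cells, at 75.7, 61.7, 86.4 and 115 CPM in Foxp3 cells, and at 48.1, 56.1, 82.6 and 89.4 CPM in the rest. In cells with Cd8 and no Cd4 the genotypes overlapped, at 63.8, 72.9, 57.2 and 65.3 CPM.

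**Figure D4:**
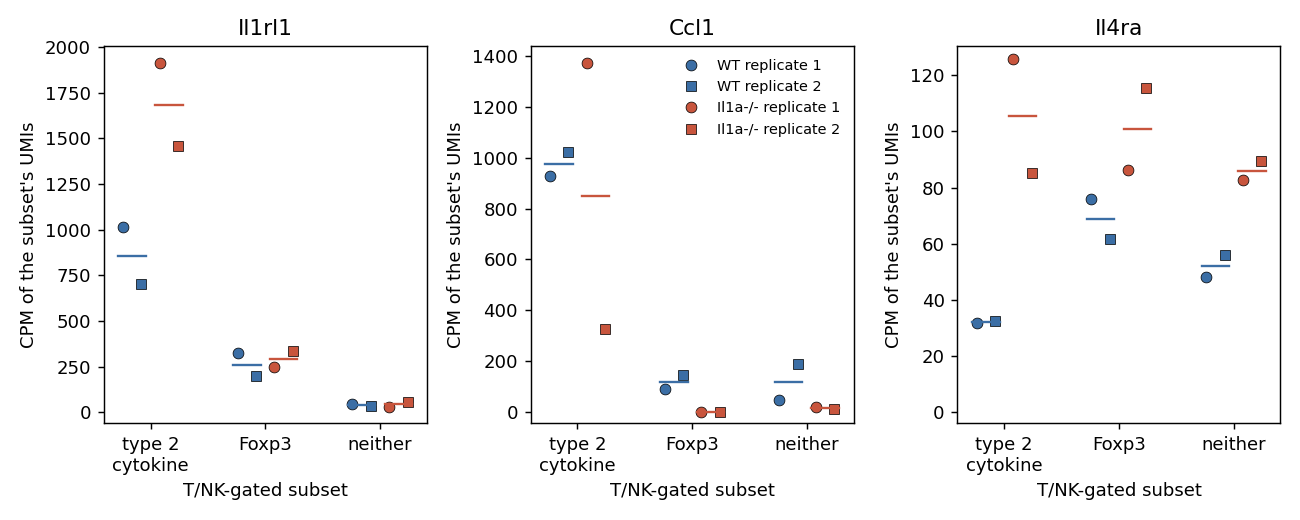
Levels of Il1rl1, Ccl1 and Il4ra in CPM in type 2 cytokine cells, Foxp3 cells and the remaining T/NK-gated cells, with 1 point per sample and a line at each group's mean (n = 2). Il1rl1 falls from cytokine cells to Foxp3 cells to the rest in each of the 4 samples. The subsets were chosen by detected UMIs and depth differed, so levels within them are not compared between the genotypes.

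Beyond the members, 602 of 11056 genes tested by host genotype in T/NK cells passed an edgeR adjusted p of 0.05, which is 5.45% (3.25% higher and 2.2% lower in Il1a-/-). With the replicate number as a block there were 1929, though the labels do not tie these numbers to the collection days. The count fell when either WT tumour was left out. Of 26 tested genes of the type 2 programme, 4 were higher and 3 lower in Il1a-/-, with a median log2 fold change of 0.05 against -0.01 over all genes. Irf4 (1.69 ± 0.17 SE, edgeR adjusted p 0.00450), the T follicular helper cytokine Il21 (2.59), Epas1 (0.93) and Batf (0.99) rose. Gata3 (-0.75 ± 0.17 SE, edgeR adjusted p 0.0426), Klrg1 (-1.12) and Il17rb (-2.59) fell.

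Of the regulatory T cell list, 4 of 11 genes were lower and 1 higher in Il1a-/- T/NK cells, with a median of -0.50: Foxp3 (-1.21), Ikzf2 (-0.94), Izumo1r (-0.80) and Tnfrsf4 (-0.77) fell and Ctla4 (1.43) rose. Of 18 type 1 genes, Ccl5 (2.48) and Cxcr6 (0.92) rose and Eomes (-1.08) fell, with a median of 0.29. Of 11 subset markers, Cd8b1 (2.90) and Cd8a (2.38) rose, and the natural killer markers Ncr1 (-1.38) and Klrb1c (-0.99) and the γδ T cell gene Trdc (-1.10) fell, with a median of -0.18. None of the 11 tested neighbours of the cytokine genes passed in edgeR, with 3 at an unadjusted p under 0.05, and 2 passed under other settings. Irf1, an interferon response factor gene, had a log2 fold change of 0.80 ± 0.19 (SE) with an edgeR adjusted p of 0.0503, and passed in 7 of 12 alternatives, edgeR with the block or with no filter and DESeq2 among them, with adjusted p from 0.00169 to 0.249. Sept8 (log2 fold change -1.01, edgeR adjusted p 0.147) passed in 1, with no filter on low counts (edgeR adjusted p 0.0470).

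In the receptor lists of the T/NK gate, Irs2 (1.53), Stat3 (1.11) and the feedback inhibitor Socs3 (0.82) rose and Ptpn6 (-1.26) and Cish (-0.78) fell among 15 tested genes of IL-4, IL-5 and IL-13 receptor signalling, with a median of 0.48. Irak2 (1.51) was the 1 gene of 13 called in IL-33 receptor signalling, with a median of 0.26. Of 19 genes of the IL-4 and IL-13 response, Irf4 rose and Myc (-1.68), Egr2 (-1.35) and Cish fell, with a median of -0.14. Of the 28 called genes named for this comparison, Ccl5, Cd8a, Cd8b1, Irf4 and Myc passed under every alternative setting, and the others did not pass in at least 1.

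Il33, the ligand of Il1rl1, was a fibroblast gene in these tumours. Fibroblast-gated cells held 95.5%, 95.5%, 96.8% and 98.6% of its UMIs. Its level there was 161, 178, 244 and 72.2 CPM, so the 2 Il1a-/- samples lay on either side of the WT samples and the log2 ratio was -0.10. Among the other gates the highest value was 10.6 CPM in phagocytes of Il1a-/- replicate 1, from 3 UMIs, and the tumour epithelial gate held at most 4.03 CPM. In 8 cells each lay 50% of the Il33 UMIs of WT replicate 2 and of Il1a-/- replicate 2, against 31 and 29 cells in the other samples.

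Fibroblasts with Pi16 or Dpp4, markers of adventitial fibroblasts, held Il33 at 155, 159, 261 and 62.3 CPM, and those without at 193, 210, 64.8 and 92.6 CPM. The genotypes overlapped in the cells with either marker. In those without, the Il1a-/- values rest on 5 and 58 UMIs, and the share of all genes that separate the groups in these cells was not computed. Other alarmins were scarce: Tslp was at 14.1, 3.01, 5.73 and 1.57 CPM in fibroblasts, and Il25 had 0 UMIs in the 5 main gates. Il1rl1 was rare in fibroblasts, with 57 UMIs, 45 of them in 16 cells of Il1a-/- replicate 2.

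Il4ra was spread over many gates. Among gates with at least 10 cells in a sample, its mean level was 191 CPM in neutrophils (2 samples), 164 in fibroblasts, 134 in phagocytes, 91.2 in plasmacytoid dendritic cells, 74.0 in conventional dendritic cells (3 samples), 69.5 in T/NK cells, 59.3 in B/plasma cells and 28.6 in tumour epithelial cells (3 samples). No gate stood above the next one in all samples, and the ranges were wide, at 84.8 to 281 CPM in fibroblasts and 49.1 to 90.5 CPM in T/NK cells. In phagocytes it was at 167, 141, 124 and 103 CPM, lower in both Il1a-/- samples with a log2 ratio of -0.43. In plasmacytoid dendritic cells it was at 67.6, 71.0, 112.5 and 114 CPM, higher in both with a log2 ratio of 0.71. In fibroblasts it was at 84.8, 206, 281 and 86.3 CPM, where the extremes came from 1 sample of each group. Of genes with at least 20 UMIs, 47.3% did not overlap between the groups in phagocytes (28.3% lower and 19.0% higher in both Il1a-/- samples), 44.1% in plasmacytoid dendritic cells (23.9% lower and 20.2% higher) and 36.8% in fibroblasts (20.4% lower and 16.4% higher).

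**Figure D5:**
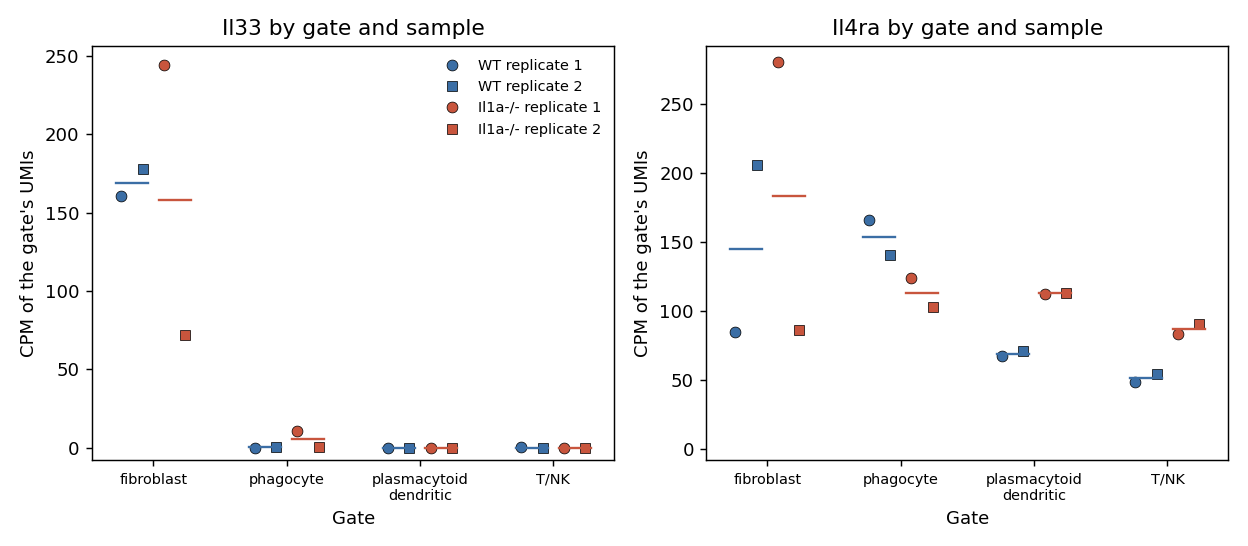
Levels of Il33 and Il4ra in CPM by gate, with 1 point per sample and a line at each group's mean (n = 2). Il33 is near 0 outside fibroblasts, and Il4ra is higher in both Il1a-/- samples in T/NK and plasmacytoid dendritic cells and lower in both in phagocytes.

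The other receptor parts differed in where they were found. Il13ra1, which pairs with Il4ra to bind IL-13, was at 94.1, 64.7, 102 and 79.0 CPM in fibroblasts and 62.5, 46.1, 56.7 and 57.6 CPM in phagocytes but at most 0.589 CPM in T/NK cells. The decoy receptor Il13ra2 was at 23.0, 27.9, 30.9 and 15.7 CPM in fibroblasts. Il2rg, the chain that pairs with Il4ra on lymphocytes, was at 227, 180, 268 and 195 CPM in T/NK cells. Il5ra, the IL-5 receptor, had 1 UMI in the 5 main gates.

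In phagocytes 84 of 8788 genes passed by host genotype in edgeR, which is 0.956% (0.808% higher and 0.148% lower). There were 215 with the replicate number as a block, and the count changed with which tumour was left out. Of 20 tested genes of the IL-4 and IL-13 response, 1 was higher, the transcription factor gene Klf4 (1.54 ± 0.27 SE, edgeR adjusted p 0.0358), with a median of 0.64 against -0.03 over all genes. Nfil3 (1.37) of the type 2 list and Tnfrsf9 (4.72) of the regulatory list rose, and 0 of 17 receptor signalling genes passed, with 7 at an unadjusted p under 0.05. DESeq2 called 109 genes in all. In fibroblasts 0 of 9892 genes passed in edgeR, which is 0.0%, with 500 at an unadjusted p under 0.05 and 14 called by DESeq2. The 13 genes of the IL-4 and IL-13 response tested there had a median of 0.57 against -0.01 over all genes.

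Genes most like each member were sought over 23 sums of cells by class and sample, in 8 classes, among 12400 genes. Il13 was nearest to Klra6, Gm20069 and Cd160 (Pearson r of log2(CPM + 1) 0.996 for each), Il5 to D630039A03Rik, Trgv2 and Gm28053 (0.991 to 0.992), and Il4 to Klra1, Klrg1 and Clnk (0.944 to 0.962). Il33 was nearest to the fibroblast genes Ddr2, Ramp2 and Mmp2 (0.964 to 0.972). Ccl1 was nearest to Xcl1, Trbc1 and Cd3g (0.922 to 0.945), Il1rl1 to Trbc1, Gramd1a and Tpp2 (0.843 to 0.851), and Il4ra to Gngt2, Cpt1a and Elovl1 (0.757 to 0.790). The sums share libraries and the values follow mainly the class, so the coefficients describe which gate a gene marks.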

How the data were processed

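The authors deposited, per tumour, unfiltered matrices of raw UMI counts over 6794880 barcodes and 64591 features, made with Cell Ranger 3.1.0 per the submitters' processing notes, which also name mm10 (libraries: single cell 3' v3.1, per the labels). The members and gene lists were chosen with earlier results of these data known. Cells were filtered as given in the report, and doublets removed at 0.8% per 1000 cells with Scrublet in scanpy 1.11.5 (128, 128, 83 and 89 barcodes). Ratios of members were taken in gates with at least 20 cells in every sample and from at least 20 UMIs. Counts were summed per sample and gate, filtered by filterByExpr, TMM scaled and tested in edgeR 4.0.16 (quasi-likelihood, adjusted p 0.05, R 4.3.3), with DESeq2 1.42.0 as an alternative. Genes were named by rule: the members, up to 8 called genes per list by smallest p (otherwise the 2 smallest), the 12 largest changes each way in the cytokine cells, and the 3 genes most like each member. Partner receptors and ligands, markers and genes under co-detection were named for their role. Some genes that the rule would name are not reported here and are counted in their lists. Same-numbered tumours were taken as the 2 pairs that the labels say were collected on separate days, though the labels do not tie the numbers to the days. Their deviations from the group means correlated at r = 0.165 in T/NK cells, 0.013 in phagocytes and 0.410 in fibroblasts. Members named beside the genotype contrast have no test. With 2 tumours a group, p-values of the genotype tests rest on the spread between these tumours, estimated with information shared over genes. In the cytokine cell comparison the sample block takes out differences between tumours. Its p-values rest on how the difference within a tumour varied over the 4 tumours. Each test was run on simulated counts with a fixed dispersion, no tumour effect and no choice of cells by a UMI. Of 2-fold changes, 20% were recovered in T/NK cells, 10% in phagocytes, 23% in fibroblasts and 40% in the cytokine comparison. Of 4-fold changes, 97%, 92%, 90% and 93% were recovered. Other settings were another scaling, no filter, each tumour left out, deeper cells, a stricter gate, Leiden clusters and doublets kept.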

Additional observations from a re-analysis of the deposited data

Results flagged for a closer look

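The direction of the Il4ra difference was not the same in all cell types. The log2 ratio of Il1a-/- over WT was 0.75 in T/NK cells and 0.71 in plasmacytoid dendritic cells, where both Il1a-/- samples were above both WT samples, and -0.43 in phagocytes, where both were below. The difference between the cell types was not tested. Counted per cell and not per UMI, the ratio was 0.05 in T/NK cells, 0.07 in plasmacytoid dendritic cells and -1.18 in phagocytes. In phagocytes thinned to 1000 UMIs a cell it was -0.63.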

How the results depend on the processing

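The count of genes called by host genotype in T/NK cells (602) was 1929 with the replicate block that pairs tumours of the same number, 1730 with no filter on low counts, and 84 to 708 with 1 tumour left out. In phagocytes (84) it was 215 with the block, 521 with no filter, 43 in cells from 1000 UMIs, and 0 to 353 with 1 tumour left out. In fibroblasts (0) it was 0 with the block, 14 with DESeq2 and 212 with no filter. Between cytokine cells and other T/NK cells (1779) it was 934 with no block, 1174 with DESeq2, 718 among Cd4 cells only, and 1150 to 1959 with 1 tumour left out. The log2 ratio of the summed cytokines (-1.27) was -2.02 as UMIs per cell, -0.72 in thinned cells, and -1.55 to -0.93 with 1 tumour left out. These directions reversed: Il5 in T/NK cells, at 0.23 thinned and -0.79 to 0.38 with 1 tumour left out; Il33 in fibroblasts, at -1.23 to 0.53; Il1rl1 in phagocytes, at 0.61 with the stricter gate, 0.47 in Leiden clusters and -0.77 to 0.99; and Il4ra in fibroblasts, at -1.06 per cell and -0.75 to 1.11. With 1 tumour left out, log2 fold changes of uncalled genes took either sign in fibroblasts (Hspa4 -0.95 to 0.025, Irs2 -0.051 to 2.02, Tslp -2.33 to 0.072) and phagocytes (Ccl4 -0.026 to 1.18, Crlf2 -0.20 to 0.012, Il7r -0.68 to 2.24). Among Cd4 cells only, Cd4, Ctla4, Ikzf4 and Tnfrsf4 reversed, at -0.045, -0.60, -0.62 and -0.91. The cause was not tested in any of these. Of the named genes' alternatives, 289 of 358 in T/NK cells, 128 of 151 in phagocytes, 171 of 177 in fibroblasts and 815 of 859 in the cytokine comparison kept direction and side of the threshold. The shallow Il1a-/- replicate 1, with 6705368 UMIs, limits what could be detected in its cells.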
